A study of Mus musculus with 12 samples.

Results

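Pre-CD4 and Pre-CD8 cells, progenitors already committed to classical dendritic cells (DCs), were compared as a pair with the common DC progenitor (CDP) that precedes them. Membership followed the array titles: 4 of the 12 arrays of the study were titled Pre-CD4 or Pre-CD8 (n = 2 each) and 3 were titled CDP. The quantity compared was the mean of the Pre-CD4 and Pre-CD8 group means minus the CDP mean, for each of 22184 genes, with attention to genes that moved alike in both progenitors. Each array held RNA of a sorted population of C57Bl/6 mice at steady state that carried a GFP reporter at 1 allele of Zbtb46 (labelled N8 Zbtb46GFP/+), so that CDP arrays had the reporter allele too. Pre-CD4 cells were bone marrow cells sorted as lineage-negative, CD135+, CD117low, CD115+, CD11c+ and MHC II-. Pre-CD8 cells were bone marrow cells sorted as lineage-negative, CD135+, CD117int, Siglec H-, CD11c+ and MHC IIint. CDP cells were bone marrow cells sorted as lineage-negative, CD117int, CD135+, CD115+, CD11c- and MHC II-. The remaining 5 arrays, of spleen DCs of the same genotype sorted as CD172a (n = 2, CD11c+, MHC II+ and CD172a+) or CD24 (n = 3, labelled CD11c+, MHC II-, CD24+ and CD172a-), entered the fit only to share the estimate of spread, and their levels are given where a gene is followed to the spleen. The age of the mice is not given in the sources used here. Marrow and spleen came from 8 to 10 littermates and populations were sorted to over 95% purity, by the submitters' account. Whether a group's arrays stand for different mice or for repeats of a pool is not stated, so a p-value here speaks of array-to-array spread, part of which may be technical.

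Classical DCs are short-lived antigen-presenting cells that are renewed from the bone marrow. A CDP divides and can still form classical or plasmacytoid DCs, whereas its committed progeny are restricted to 1 classical branch, cDC2 for Pre-CD4 or cDC1 for Pre-CD8, and leave the marrow through the blood to mature in tissues. Known accompaniments of commitment are the zinc finger factor Zbtb46, the integrin CD11c, the machinery of MHC class II presentation and loss of stem cell and granulocyte genes.

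Values are log2 expression as deposited, so a difference of 1 is a doubling, and they were compared between groups within a gene, never between genes. The means of the 7 arrays were 5.28 to 5.32, their medians 4.89 to 5.08 and their interquartile ranges 2.48 to 2.86. Arrays of a group correlated at r = 0.963 to 0.987 over probe sets, Pre-CD4 with Pre-CD8 arrays at 0.954 to 0.976, and progenitor with CDP arrays at 0.937 to 0.968. The array Pre-CD8 2 stood apart in neutrophil genes: its mean over 14 such markers was 7.67, the highest of the 4 progenitor arrays, which began at 5.40, against 5.39 to 6.66 in CDP arrays. There were no detection calls, and low values may lie at background. In sorted bulk samples, fewer cells of a type and less RNA per cell cannot be told apart. Pirb, Gm20559, Gm4759, Mx1, Mx2, Hspa1b, Klrd1, Klrk1, Cd209d, Gpr141b and the classical MHC genes have close copies in the mouse genome, and their values are uncertain.

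Genes were called in both directions between the progenitors and CDP. A gene was called at a Benjamini-Hochberg adjusted p under 0.05 in limma, and 1542 genes were called in the averaged contrast, 6.95% of those tested. Of these, 707 (3.19%) were higher and 835 (3.76%) lower in the progenitors. A called gene was counted as moving alike when all 4 progenitor arrays lay on the same side of all 3 CDP arrays and the progenitor means differed by under 1. Where progenitor and CDP arrays of an alike gene are described below as apart, the rule required it, and it is not a separate result. That held for 1359 genes (6.13%), with 564 (2.54%) higher and 795 (3.58%) lower. Of the 1542, 587 were also called, in the same direction, in each progenitor against CDP on its own, and 293 in neither, so alike by this rule does not mean called in each. Over all genes tested, called or not, 21.3% had the 4 progenitor arrays apart from the 3 CDP arrays. Among genes not alike, 143 were called higher and 40 lower. The limit of 1 on the progenitor difference stopped 132 of the genes called higher and 30 of those called lower. Counts depended on the arrays in the fit: genes called higher numbered 442 without CDP 3, 454 without CDP 2 and 471 without CDP 1, and genes called lower 439 without CDP 1, 450 without CDP 3, 492 without CDP 2, 467 without Pre-CD4 2 and 552 without Pre-CD8 2.

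The rule limits the gap between the progenitor means, so a small change can still be unequal in the progenitors. Polr1a differed from CDP by -0.39 in Pre-CD8 and -1.39 in Pre-CD4, and Fgr by 1.13 in Pre-CD8 and 2.13 in Pre-CD4. The median difference from CDP was 1.01 for the 564 genes higher and -0.92 for the 795 lower, against 0.03 over all genes, values that the rule itself selects. Changes over 2 were found in 45 genes higher and 35 lower, and changes over 1 in 290 higher and 320 lower. The median distance between the Pre-CD8 and Pre-CD4 means was 0.27 in the genes higher and 0.22 in the genes lower, and 0.17 over all genes. Taken singly, Pre-CD8 minus CDP had 1057 genes called (4.76%), 509 higher (2.29%) and 548 lower (2.47%), and Pre-CD4 minus CDP 1008 (4.54%), 514 higher (2.32%) and 494 lower (2.23%), with the CDP arrays shared by both comparisons. Between the progenitors themselves 156 genes (0.703%) were called. None of them was among the 1359, but the limit of 1 on the progenitor difference makes such an overlap unlikely. It is therefore no separate sign of likeness. At the limit, Rab43 (0.97), Fgr (just under 1, higher in Pre-CD4) and Polr1a (1.00) lay just inside in Pre-CD8 minus Pre-CD4, and Acvrl1 (1.00), Olfm1 (1.00) and Prss30 (1.00) fell just outside. The median standard error was 0.20 for the averaged contrast and 0.27 for the difference between progenitors, so a difference between progenitors of under 1 could often not be told from none.

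**Figure D1:**
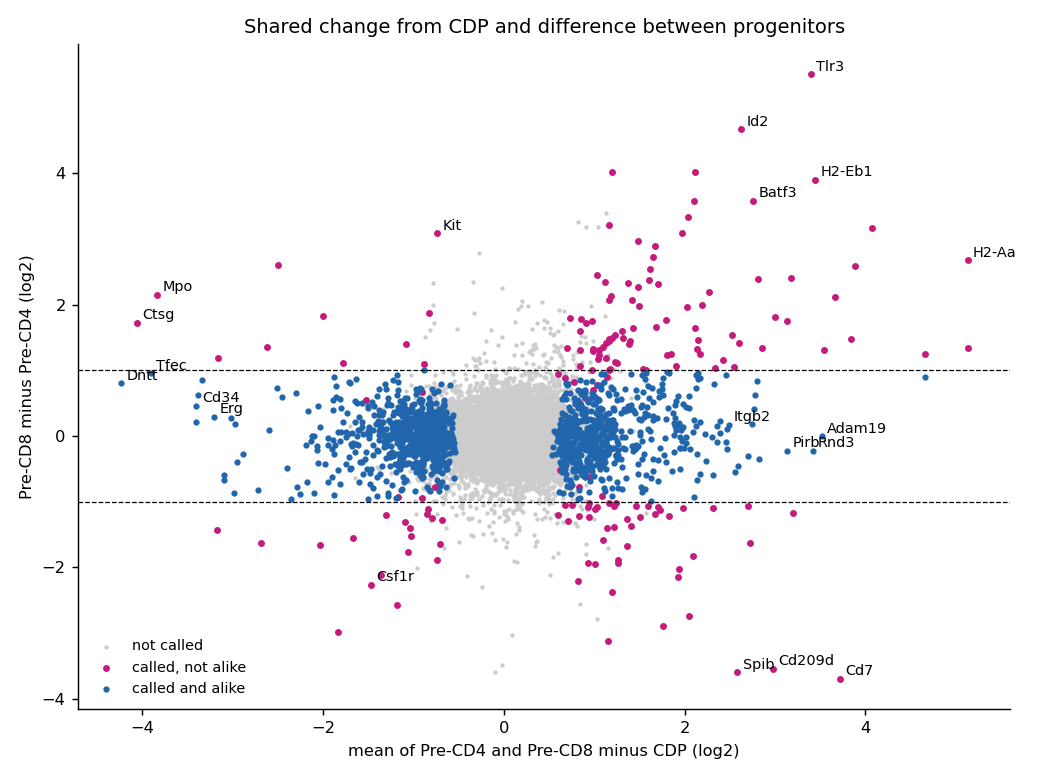
Each point is a gene; the horizontal axis is the mean of Pre-CD4 and Pre-CD8 minus CDP and the vertical axis Pre-CD8 minus Pre-CD4, both in log2. Genes called and alike (1359, blue) lie between the dashed lines at 1 and -1, the limits that the rule sets. Genes called but not alike are pink. Tlr3, Id2 and H2-Eb1 lie far above these lines, while Cd7, Spib and Cd209d lie far below them.

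The largest shared increases included a protease, a regulator of cell shape and a lysosomal reductase. Adam19, a membrane-bound metalloprotease, stood at 7.91 and 8.21 in Pre-CD4, 7.58 and 8.53 in Pre-CD8 and 4.12, 4.63 and 4.87 in CDP arrays. Its averaged difference was 3.52 ± 0.24 (SE, adjusted p = 2.90e-06), and the progenitor means differed by under 0.01, the smallest gap of any gene with a called increase of at least 2. Rnd3, an atypical small GTPase that opposes actomyosin contraction, stood at 9.08 and 9.47 in Pre-CD4, 8.90 and 9.20 in Pre-CD8 and 5.19, 5.88 and 6.16 in CDP arrays. It rose by 3.42 ± 0.22 (SE, adjusted p = 1.83e-06), with every progenitor array more than 2 units above every CDP array. Ifi30, the lysosomal thiol reductase that opens disulfide bonds of antigens before class II loading, stood at 10.49 and 11.06 in Pre-CD4, 10.46 and 10.38 in Pre-CD8 and 7.65, 7.96 and 7.73 in CDP arrays. It rose by 2.82 ± 0.32 (SE, adjusted p = 1.20e-04), and its highest CDP array lay well below its lowest progenitor array.

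Other large shared increases were those of receptors, an adaptor and enzymes. Pirb, an inhibitory receptor for MHC class I, stood at 9.49 and 9.32 in Pre-CD4, 9.61 and 8.75 in Pre-CD8 and 5.71, 6.31 and 6.45 in CDP arrays, a difference of 3.14 ± 0.27 (SE, adjusted p = 1.27e-05). Its array Pre-CD8 2 was the lowest of the progenitors and still above all CDP arrays. P2ry6, a receptor for extracellular UDP, stood at 7.32 and 7.62 in Pre-CD4, 7.88 and 8.31 in Pre-CD8 and 5.13, 4.97 and 4.93 in CDP arrays, a difference of 2.78 ± 0.26 (SE, adjusted p = 2.85e-05). The groups did not overlap, and the Pre-CD8 arrays were the higher of the progenitors. Rnase6, a secreted ribonuclease with antimicrobial activity in humans, stood at 10.64 and 10.48 in Pre-CD4, 10.78 and 10.71 in Pre-CD8 and 7.54, 8.09 and 8.09 in CDP arrays, a difference of 2.75 ± 0.24 (SE, adjusted p = 1.27e-05). The progenitor arrays lay close together, all above the CDP arrays. Grap2, an adaptor of antigen receptor signalling in T cells, differed by 2.71 ± 0.29 (SE, adjusted p = 7.06e-05), Kynu, the kynureninase of tryptophan breakdown, by 2.59 ± 0.19 (SE, adjusted p = 3.35e-06), and Cd300lg, a CD300 family receptor, by 2.56 ± 0.23 (SE, adjusted p = 2.00e-05). Gm20559 had the largest increase of the genes alike, 4.65 ± 0.62 (SE, adjusted p = 4.79e-04), but also a wide CDP spread, with 8.12 and 7.80 in Pre-CD4, 9.02 and 8.68 in Pre-CD8 and 4.85, 3.48 and 2.92 in CDP arrays. Crybg1 differed by 2.80 and A530064D06Rik by 2.77, the call of A530064D06Rik being lost without CDP 2 (adjusted p = 0.0578).

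**Figure D2:**
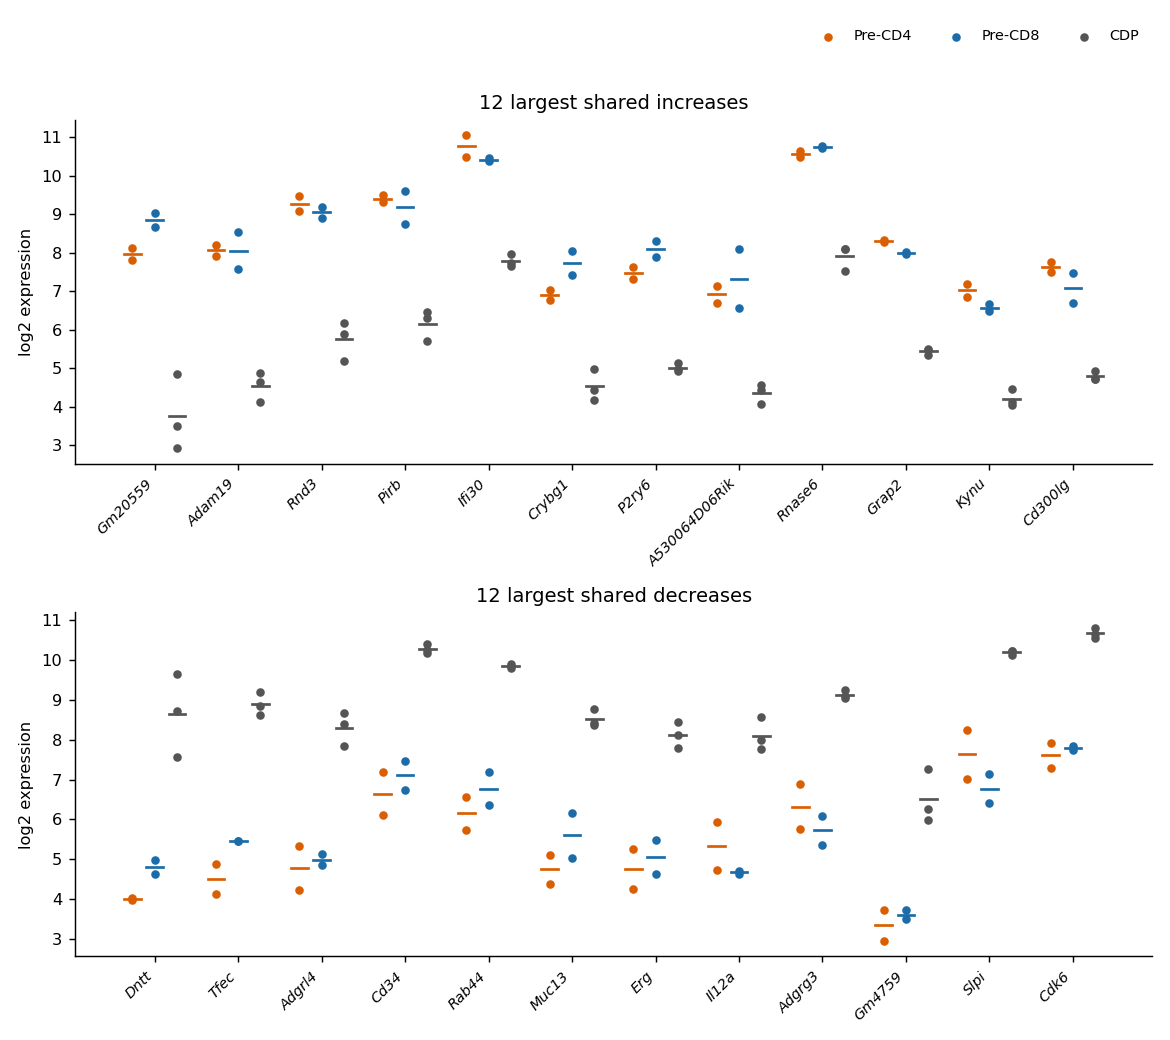
Each point is an array, in log2 expression, for the 12 largest shared increases (top) and decreases (bottom), with Pre-CD4 and Pre-CD8 to the left of CDP and a bar at each group mean. That the 4 progenitor arrays lie on 1 side of the 3 CDP arrays in all 24 genes is required by the rule that selected them. CDP arrays spread over about 2 units in Gm20559 and Dntt.

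Promoter sequence was read for the alike genes because PU.1 (encoded by Spi1) and interferon regulatory factors are the classical DNA-binding regulators of DC genes. RefSeq promoters of the build GRCm38.p6 were matched by symbol for 16994 of the 22184 genes, and the 250 bases before each start were searched on both strands. The PU.1-type word GAGGAAGT was present in 5.45% of the genes alike and higher (25 of 459 with a promoter) and in 3.46% of those alike and lower, against 2.67% of all. The interferon-response word (GAAA, any 2 bases, GAAA) was present in 4.79% and 3.15%, against 3.40% of all, and the word of composite ETS and IRF sites (GGAA, any 2 bases, GAAA) in 4.14% and 1.73%, against 2.60%. The last 2 words share their IRF part and can overlap at a site. These are counts of letters in a window, not of bound sites. Printed next, 5′ to 3′ on the gene's strand, are 4 promoters of shared increases, 2 with the PU.1-type word and 2 with the interferon-response word, with the word in capitals (in Rnase6 it runs on the opposite strand, so its reverse complement is seen). They are Pirb at chr7:3720383-3720632 (minus strand), Btla at chr16:45224087-45224336 (plus), Rnase6 at chr14:51128814-51129063 (plus) and Ctss at chr3:95526536-95526785 (plus), each 250 bases upstream of an annotated start.
Pirb: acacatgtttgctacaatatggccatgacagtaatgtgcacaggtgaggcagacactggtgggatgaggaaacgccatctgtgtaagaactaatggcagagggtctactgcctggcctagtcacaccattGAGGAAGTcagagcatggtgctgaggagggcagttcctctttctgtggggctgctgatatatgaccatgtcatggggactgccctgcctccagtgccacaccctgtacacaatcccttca
Btla: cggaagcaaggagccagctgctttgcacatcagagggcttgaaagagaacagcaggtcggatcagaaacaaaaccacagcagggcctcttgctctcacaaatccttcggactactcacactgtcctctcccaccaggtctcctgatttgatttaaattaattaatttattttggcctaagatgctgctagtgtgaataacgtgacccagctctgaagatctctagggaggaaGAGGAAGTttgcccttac
Rnase6: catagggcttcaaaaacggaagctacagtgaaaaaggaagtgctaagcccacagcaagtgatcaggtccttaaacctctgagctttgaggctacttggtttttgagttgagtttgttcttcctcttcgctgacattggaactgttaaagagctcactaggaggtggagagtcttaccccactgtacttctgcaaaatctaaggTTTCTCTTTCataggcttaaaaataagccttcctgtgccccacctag
Ctss: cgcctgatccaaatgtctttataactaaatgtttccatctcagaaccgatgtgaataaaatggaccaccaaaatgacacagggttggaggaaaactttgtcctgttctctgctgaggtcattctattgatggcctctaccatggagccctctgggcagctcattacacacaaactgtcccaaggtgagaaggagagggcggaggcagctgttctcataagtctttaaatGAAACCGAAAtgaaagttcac
Spi1 itself was not called, at 0.40 ± 0.15 (SE, adjusted p = 0.171), and neither was Irf8, the IRF of cDC1 cells, at 0.57 ± 0.20 (SE, adjusted p = 0.120). Irf8 stood at 12.05 and 11.92 in Pre-CD4, 12.16 and 12.12 in Pre-CD8 and 11.53, 11.51 and 11.44 in CDP arrays, with the progenitor arrays above all CDP arrays, and was called when only the 7 progenitor and CDP arrays were fitted (adjusted p = 0.0258), after quantile normalization (0.0383) and with the array interquartile range as a covariate (0.0428).

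Stem and early progenitor genes fell together. Of 25 measured genes of this kind, 14 fell, 12 of them alike, and Cd48 alone rose (1.12), with a list median of -0.76 against 0.03 over all genes and a share of 3.76% called lower. Dntt, the terminal transferase of lymphoid-primed progenitors, stood at 3.97 and 4.04 in Pre-CD4, 4.98 and 4.63 in Pre-CD8 and 9.64, 8.72 and 7.57 in CDP arrays. It fell by 4.24 ± 0.35 (SE, adjusted p = 1.11e-05), with no overlap although CDP arrays spread over 2 units. Cd34, the sialomucin used to isolate stem cells, stood at 7.19 and 6.11 in Pre-CD4, 7.46 and 6.75 in Pre-CD8 and 10.40, 10.16 and 10.26 in CDP arrays. It fell by 3.40 ± 0.26 (SE, adjusted p = 5.98e-06), and the progenitor arrays remained spread over more than 1 unit. Adgrl4, an adhesion G protein-coupled receptor, stood at 5.34 and 4.23 in Pre-CD4, 5.12 and 4.86 in Pre-CD8 and 8.66, 8.39 and 7.83 in CDP arrays and differed by -3.40 ± 0.28 (SE, adjusted p = 1.11e-05). Muc13, a membrane mucin, stood at 5.11 and 4.38 in Pre-CD4, 6.17 and 5.04 in Pre-CD8 and 8.78, 8.42 and 8.36 in CDP arrays and differed by -3.34 ± 0.27 (SE, adjusted p = 1.00e-05). Both genes had CDP arrays well above all others. Cd93 (-2.35), Cd27 (-2.28), Adgrg1 (-2.13), Emb (-1.47) and Angpt1 (-1.37) fell alike too, while Prom1 (0.05), Mycn (0.00), Spink2 (0.25) and Flt3 (-0.06) were not called. Of the 14 genes lower, 11 were called in every fit that left out 1 array.

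Part of the transcription factors of early haematopoiesis fell, and most were not called. Of 31 measured, 9 fell (29.0%, against 3.76% of all genes), 8 of them alike, with a list median of -0.46. Bcl11a alone rose (0.71, not alike), a call lost without CDP 1, CDP 2, CDP 3, Pre-CD4 2, Pre-CD8 1 or Pre-CD8 2 (adjusted p = 0.0571 to 0.139). Erg, an ETS factor needed for stem cell maintenance, stood at 5.26 and 4.25 in Pre-CD4, 4.63 and 5.48 in Pre-CD8 and 8.44, 8.11 and 7.78 in CDP arrays. It fell by 3.20 ± 0.27 (SE, adjusted p = 1.16e-05), the largest change of the list. Myb, a regulator of progenitor proliferation, stood at 8.94 and 8.69 in Pre-CD4, 8.19 and 7.70 in Pre-CD8 and 10.48, 10.51 and 10.45 in CDP arrays. It fell by 2.10 ± 0.19 (SE, adjusted p = 2.18e-05), with all CDP arrays within 0.06 of each other. Nfe2 (-1.26 ± 0.23 SE, adjusted p = 0.00428) and Hoxa9 (-1.07 ± 0.23 SE, adjusted p = 0.0111) were next among the members that fell alike, and Meis1, Ikzf2, Lyl1 and Tcf3 completed them with smaller differences. Meis1 lost its call without CDP 1, CDP 3, Pre-CD4 2 or Pre-CD8 2 (adjusted p = 0.0502 to 0.106), Lyl1 without CD24 2, CDP 1, CDP 2, CDP 3, Pre-CD4 2 or Pre-CD8 2 (adjusted p = 0.0652 to 0.177) and Tcf3 without CD172a 1, CD172a 2, CD24 2, CDP 1, CDP 2, CDP 3, Pre-CD4 1, Pre-CD4 2, Pre-CD8 1 or Pre-CD8 2 (adjusted p = 0.0562 to 0.183). Runx1 (-0.52), Cebpa (-0.05), Ikzf1 (-0.17), Fli1 (-0.01) and Gata2 (-0.11) were not called. Without CDP 1 only 4 members were called lower, and Hoxa9 (adjusted p = 0.0631) and Ikzf2 (0.0716) were lost there too.

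Outside these lists the steepest shared decreases included Tfec, a basic helix-loop-helix factor of the MiT family, which stood at 4.13 and 4.89 in Pre-CD4, 5.46 and 5.47 in Pre-CD8 and 8.85, 8.62 and 9.20 in CDP arrays. It fell by 3.90 ± 0.27 (SE, adjusted p = 2.90e-06), and the Pre-CD4 arrays were the lowest. Rab44, a large Rab GTPase, differed by -3.39 ± 0.26 (SE, adjusted p = 5.98e-06), Adgrg3, another adhesion receptor, by -3.10 ± 0.28 (SE, adjusted p = 1.99e-05), and Gm4759 by -3.02 ± 0.38 (SE, adjusted p = 2.95e-04). Il12a, the p35 chain of interleukin-12, a cytokine of mature cDC1 cells, stood at 5.93 and 4.73 in Pre-CD4, 4.71 and 4.63 in Pre-CD8 and 8.55, 7.98 and 7.77 in CDP arrays. It fell by 3.10 ± 0.30 (SE, adjusted p = 3.66e-05), with CDP arrays the highest of the 3 groups.

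Genes of primary granules and early myeloid cells fell less evenly. Of 19 measured, 13 fell (68.4%, against 3.76% of all genes) and none rose (0 higher at an unadjusted p under 0.05). The list median was -1.87, and 6 of the 13 were alike. Slpi, a secreted protease inhibitor, stood at 8.25 and 7.02 in Pre-CD4, 6.41 and 7.13 in Pre-CD8 and 10.23, 10.12 and 10.23 in CDP arrays. It fell by 2.99 ± 0.32 (SE, adjusted p = 8.68e-05). Cst7, an inhibitor of lysosomal cysteine proteases, stood at 8.25 and 7.40 in Pre-CD4, 7.19 and 6.69 in Pre-CD8 and 9.76, 9.51 and 9.63 in CDP arrays and differed by -2.25 ± 0.24 (SE, adjusted p = 7.47e-05). In both genes all progenitor arrays were below all CDP arrays. Hp, haptoglobin, stood at 5.26 and 5.98 in Pre-CD4, 5.34 and 7.20 in Pre-CD8 and 8.23, 7.97 and 8.54 in CDP arrays and differed by -2.30 ± 0.36 (SE, adjusted p = 0.00142), with Pre-CD8 2 the highest progenitor array. Hk3 (-1.87 ± 0.24 SE, adjusted p = 3.47e-04) also fell alike. The serine proteases and peroxidase of azurophilic granules also fell but were not alike: Mpo differed from CDP by -4.91 in Pre-CD4 and -2.76 in Pre-CD8, Ctsg by -4.92 in Pre-CD4 and -3.20 in Pre-CD8, Prtn3 by -3.76 in Pre-CD4 and -2.56 in Pre-CD8 and Elane by -3.80 in Pre-CD4 and -1.20 in Pre-CD8. Elane stood at 6.44 and 5.61 in Pre-CD4, 7.53 and 9.71 in Pre-CD8 and 9.30, 9.64 and 10.53 in CDP arrays, and the array Pre-CD8 2 was by far the highest progenitor array. The neutrophil gene Ngp stood at 5.36 and 7.39 in Pre-CD4, 5.12 and 10.87 in Pre-CD8 and 5.10, 8.77 and 8.11 in CDP arrays, and S100a8 at 7.88 and 8.89 in Pre-CD4, 8.28 and 11.95 in Pre-CD8 and 6.86, 10.25 and 10.27 in CDP arrays. Neither was called, and Pre-CD8 2 was the highest of the 7 arrays in both. The call of Elane was lost without CDP 3 (adjusted p = 0.0535). Without Pre-CD8 2, 12 of the 19 granule genes were called lower, and without CDP 3, 9 were.

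Genes of ribosome production fell together. Of 29 measured genes of MYC and ribosome biogenesis, 19 fell (65.5%, against 3.76% of all genes), all of them alike by the rule. None rose (0 higher at an unadjusted p under 0.05), and the list median was -0.93. Polr1a, at the limit of the rule, differed from CDP by -0.39 in Pre-CD8 and -1.39 in Pre-CD4. Gnl3, the nucleolar GTPase nucleostemin, stood at 8.18 and 8.26 in Pre-CD4, 8.67 and 8.68 in Pre-CD8 and 9.96, 9.82 and 9.86 in CDP arrays. It fell by 1.43 ± 0.18 (SE, adjusted p = 2.92e-04). Srm, the spermidine synthase, stood at 7.54 and 6.76 in Pre-CD4, 7.83 and 7.52 in Pre-CD8 and 9.13, 8.61 and 8.86 in CDP arrays, and Cad, the enzyme that starts pyrimidine synthesis, stood at 5.84 and 5.94 in Pre-CD4, 6.06 and 5.94 in Pre-CD8 and 7.36, 7.12 and 7.27 in CDP arrays. Srm differed by -1.45 ± 0.22 (SE, adjusted p = 9.74e-04) and Cad by -1.31 ± 0.17 (SE, adjusted p = 3.54e-04), with no overlap in either. Dkc1 (-1.27), Heatr1 (-1.26), Mybbp1a (-1.18), Utp20 (-1.11), Nop56 (-0.95) and the RNA polymerase I subunit Polr1b (-1.10) fell likewise. The 10 members not called all had negative differences, Npm1 at -0.44 and Ncl at -0.74 among them. Myc stood at 7.83 and 8.05 in Pre-CD4, 8.78 and 8.49 in Pre-CD8 and 9.58, 9.02 and 9.06 in CDP arrays. It fell by 0.93 ± 0.23 (SE, adjusted p = 0.0288), a call lost without CDP 1, CDP 2, CDP 3, Pre-CD4 1, Pre-CD4 2 or Pre-CD8 2 (adjusted p = 0.0546 to 0.149). Ppan, a pre-rRNA processing factor, differed by -1.28 ± 0.28 (SE, adjusted p = 0.0136), a call lost without CDP 1, Pre-CD4 2 or Pre-CD8 2 (adjusted p = 0.0516 to 0.0779). Of the 19, 11 were called in every fit that left out 1 array, and the count was 11 without CDP 1 and 12 without Pre-CD4 2. The E-box CACGTG, the binding word of MYC, was in none of the 23 promoters of this list that could be matched. It was in 7.83% of all promoters and 10.7% of those of genes alike and lower. A list of 23 promoters is small for shares of this size, and sequence after the start was not searched. Whether MYC binds these genes was not tested.

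Of the cell cycle genes 26.3% were called lower, against 3.76% of all genes, and 2.63% higher, against 3.19%. Of 38 measured genes, 10 fell and 1 rose, all 11 alike, with a list median of 0.09. Those that fell included kinases and a cyclin of G1 and subunits of the replicative helicase. Cdk6, the kinase partner of D-type cyclins, stood at 7.92 and 7.29 in Pre-CD4, 7.83 and 7.74 in Pre-CD8 and 10.55, 10.79 and 10.64 in CDP arrays. It fell by 2.97 ± 0.30 (SE, adjusted p = 4.30e-05). Ccnd2, cyclin D2, stood at 7.71 and 6.75 in Pre-CD4, 7.80 and 6.39 in Pre-CD8 and 9.26, 9.16 and 8.92 in CDP arrays and differed by -1.95 ± 0.31 (SE, adjusted p = 0.00145). Progenitor and CDP arrays were apart in both, and Ccnd2 varied most within the progenitors. The helicase subunits Mcm3 (-1.26 ± 0.21 SE, adjusted p = 0.00201), Mcm6 (-1.18 ± 0.25 SE, adjusted p = 0.0100), Mcm2 (-0.89) and Mcm4 (-0.88) fell. So did Cdk4 (-1.11, lost without CDP 1 or Pre-CD4 2, adjusted p = 0.0539 to 0.0645), Mcm7 (-1.01, lost without CDP 1 or Pre-CD8 2, adjusted p = 0.0531 to 0.0676), the licensing factor Cdt1 (-0.97, lost without CDP 1, CDP 3, Pre-CD4 2 or Pre-CD8 2, adjusted p = 0.0510 to 0.0735) and the inhibitor Cdkn1a (-1.14, lost without CDP 1, CDP 2, Pre-CD4 1 or Pre-CD8 1, adjusted p = 0.0522 to 0.0869). Cdkn2c, the p18 inhibitor of CDK4 and CDK6, rose by 1.10. The proliferation marker Mki67 and the G2 and mitosis genes named next were not called: Mki67 stood at 10.80 and 11.24 in Pre-CD4, 10.70 and 11.02 in Pre-CD8 and 10.22, 10.77 and 10.61 in CDP arrays, a difference of 0.41 ± 0.23 (SE, adjusted p = 0.408), and Ccna2 differed by 0.67, Ccnb2 by 0.70, Plk1 by 0.46, Aurkb by 0.46, Top2a by 0.19 and Cdk1 by 0.10. Mcm6 lost its call without CDP 3 (adjusted p = 0.0503), and without CDP 1 only 6 members were called lower. The number called higher was 3 without CD24 1 or CD24 3 and 2 without either CD172a array.

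**Figure D3:**
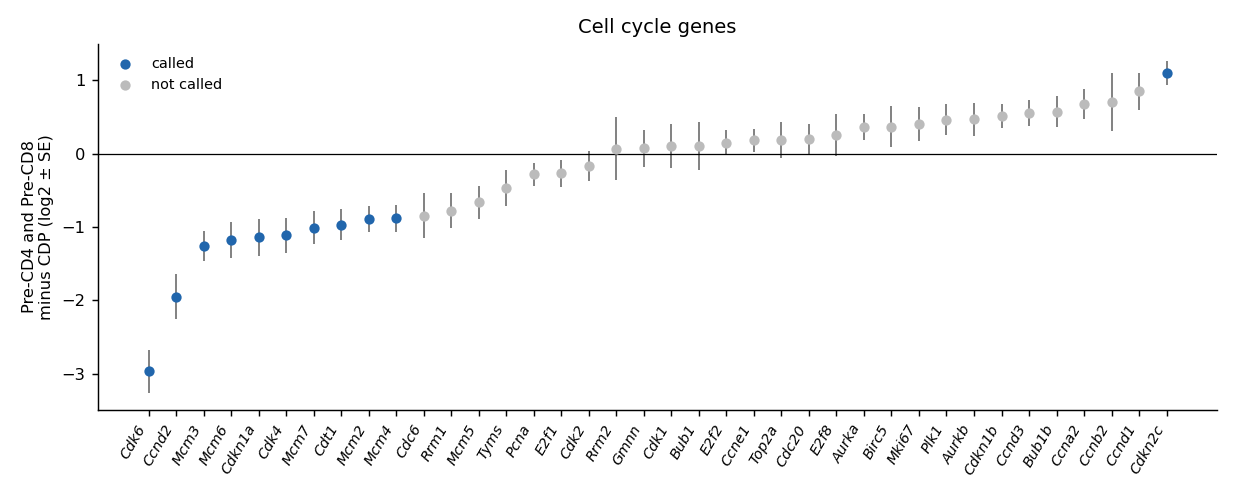
Points are 38 cell cycle genes and bars the standard errors of limma; the vertical axis is the mean of Pre-CD4 and Pre-CD8 minus CDP in log2. Called genes (dark) lie at the left end from Cdk6 at -2.97 to Mcm4 at -0.88, with Cdkn2c at 1.10 at the right end, while mitotic genes sit between 0 and 1 and are not called.

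Most genes shared by the classical DC branches rose. Of 30 measured, 20 rose and Kit fell (-0.74), with a list median of 1.04 against 0.03 over all genes and 3.19% called higher. Only 9 of the 20 were alike. Zbtb46, the factor that marks the classical lineage, stood at 6.62 and 6.22 in Pre-CD4, 6.87 and 6.87 in Pre-CD8 and 5.02, 5.23 and 5.15 in CDP arrays. It rose by 1.51 ± 0.19 (SE, adjusted p = 2.71e-04), and both Pre-CD8 arrays read 6.87. All groups carry the reporter at 1 allele of this gene. Btla, an inhibitory receptor, stood at 8.01 and 8.63 in Pre-CD4, 8.01 and 8.94 in Pre-CD8 and 6.18, 5.92 and 6.71 in CDP arrays and differed by 2.13 ± 0.25 (SE, adjusted p = 1.89e-04). Ap1s3, an adaptor subunit of vesicle transport, stood at 8.12 and 8.59 in Pre-CD4, 8.81 and 9.41 in Pre-CD8 and 7.24, 7.11 and 7.05 in CDP arrays and differed by 1.60 ± 0.19 (SE, adjusted p = 1.59e-04). The groups of both genes were apart. Arhgap22 (1.29) and Cbfa2t3 (1.09) rose alike as well, and 14 of the 20 increases were called in every fit that left out 1 array. Larger but unequal increases were those of Plbd1, with 4.46 in Pre-CD4 and 5.80 in Pre-CD8, Slamf7, with 4.04 in Pre-CD4 and 5.29 in Pre-CD8, P2ry10, with 3.10 in Pre-CD4 and 4.58 in Pre-CD8, and Itgax, with 3.54 in Pre-CD4 and 1.90 in Pre-CD8. Itgax encodes CD11c, which the gates required in the progenitors and excluded in CDP, so its rise restates the sort. Ccr7 (-0.06), Cd83 (0.68) and Relb (0.74), genes of activated DCs, were not called.

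Genes of MHC class II presentation rose, whereas few of class I were called. Of 16 class II pathway genes, 12 rose (75.0%, against 3.19% of all genes) and none fell (0 lower at an unadjusted p under 0.05). The list median was 1.14, and 5 were alike: Ifi30, H2-DMb1, H2-DMa, Ctss and Marchf1. H2-DMb1, a chain of the peptide exchange factor DM, stood at 6.68 and 6.51 in Pre-CD4, 7.45 and 7.33 in Pre-CD8 and 5.48, 5.14 and 5.10 in CDP arrays. It rose by 1.75 ± 0.20 (SE, adjusted p = 1.32e-04), and the Pre-CD8 arrays were higher than the Pre-CD4 arrays. Its partner H2-DMa differed by 0.82 ± 0.22 (SE, adjusted p = 0.0394), a call lost with the array number as a block (adjusted p = 0.0696) and without CD24 2, CDP 1, CDP 2, CDP 3, Pre-CD4 1, Pre-CD4 2, Pre-CD8 1 or Pre-CD8 2 (adjusted p = 0.0526 to 0.155). Ctss, the protease that trims the invariant chain, stood at 10.68 and 10.89 in Pre-CD4, 10.68 and 10.81 in Pre-CD8 and 9.75, 10.20 and 9.97 in CDP arrays and differed by 0.80 ± 0.18 (SE, adjusted p = 0.0170), a call lost without CDP 1, CDP 3, Pre-CD4 2 or Pre-CD8 2 (adjusted p = 0.0561 to 0.0972). Marchf1, a ligase that turns over surface class II, differed by 0.79, lost without CDP 2, Pre-CD4 2, Pre-CD8 1 or Pre-CD8 2 (adjusted p = 0.0517 to 0.117). The class II chains themselves rose in both progenitors but by unequal amounts: H2-Aa differed from CDP by 3.79 in Pre-CD4 and 6.47 in Pre-CD8, H2-Ab1 by 2.59 in Pre-CD4 and 5.18 in Pre-CD8 and H2-Eb1 by 1.49 in Pre-CD4 and 5.39 in Pre-CD8. Class II protein was part of the gates, intermediate in Pre-CD8 and absent in Pre-CD4 and CDP. Of 16 class I pathway genes none rose (2 higher at an unadjusted p under 0.05) and 2 fell (12.5%, against 3.76% of all genes). The list median was 0.11, and 1 was called lower without any 1 of the CDP arrays, Pre-CD4 2 or either Pre-CD8 array. Erap1, which trims peptides in the endoplasmic reticulum, stood at 7.08 and 7.0 in Pre-CD4, 7.53 and 7.54 in Pre-CD8 and 8.18, 8.12 and 8.06 in CDP arrays and differed by -0.84 ± 0.16 (SE, adjusted p = 0.00690). The groups were apart and narrow. Calr, calreticulin, differed by -0.67 ± 0.17 (SE, adjusted p = 0.0263), a call lost without CDP 1, CDP 2, CDP 3, Pre-CD4 2, Pre-CD8 1 or Pre-CD8 2 (adjusted p = 0.0516 to 0.106). B2m (0.10), Tap1 (0.42) and H2-K1 (-0.04) were not called.

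Most of the called genes of a single branch were not alike, an outcome that the limit of 1 on the progenitor difference favours. Over all genes tested, 2.54% were alike and higher. Of 26 cDC1 genes, 18 rose in the averaged contrast (69.2%, against 3.19% of all genes) and none fell (0 lower at an unadjusted p under 0.05). The list median was 2.29 in Pre-CD8 minus CDP and 0.35 in Pre-CD4 minus CDP. Between the progenitors, 15 members were called higher in Pre-CD8 and 1 in Pre-CD4. Of the 18, 13 were called in every fit that left out 1 array. Only Rab43, Cxcr3 and Fnbp1 were alike. Rab43, a GTPase of cross-presentation, stood at 7.24 and 7.37 in Pre-CD4, 7.92 and 8.63 in Pre-CD8 and 5.84, 6.21 and 5.91 in CDP arrays and differed by 1.80 ± 0.19 (SE, adjusted p = 7.70e-05). Cxcr3, a chemokine receptor, stood at 5.71 and 5.65 in Pre-CD4, 6.68 and 6.58 in Pre-CD8 and 4.80, 5.27 and 5.17 in CDP arrays and differed by 1.08 ± 0.16 (SE, adjusted p = 0.00104). Both were higher in Pre-CD8 than in Pre-CD4 arrays, and both groups exceeded CDP. Fnbp1, a membrane-bending adaptor of the actin machinery, differed by 0.84 ± 0.19 (SE, adjusted p = 0.0169), lost without CDP 1, CDP 2, CDP 3, Pre-CD4 2 or Pre-CD8 2 (adjusted p = 0.0516 to 0.0841). Of 28 cDC2 genes, 7 rose (25.0%) and 2 fell (7.14%, against 3.76% of all genes). Without any 1 of the CDP, Pre-CD4 or CD172a arrays, Pre-CD8 1 or CD24 2, 1 was called lower. Lgals3 and Notch2 were alike. Lgals3, galectin-3, stood at 8.05 and 7.94 in Pre-CD4, 7.98 and 7.51 in Pre-CD8 and 5.40, 6.53 and 6.04 in CDP arrays and differed by 1.88 ± 0.24 (SE, adjusted p = 2.76e-04). Notch2, the receptor on which splenic cDC2 cells depend, stood at 9.13 and 9.43 in Pre-CD4, 9.19 and 9.65 in Pre-CD8 and 8.14, 8.23 and 8.14 in CDP arrays and differed by 1.18 ± 0.17 (SE, adjusted p = 8.51e-04). For these 2 genes the progenitor arrays overlapped each other and lay above CDP.

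**Figure D4:**
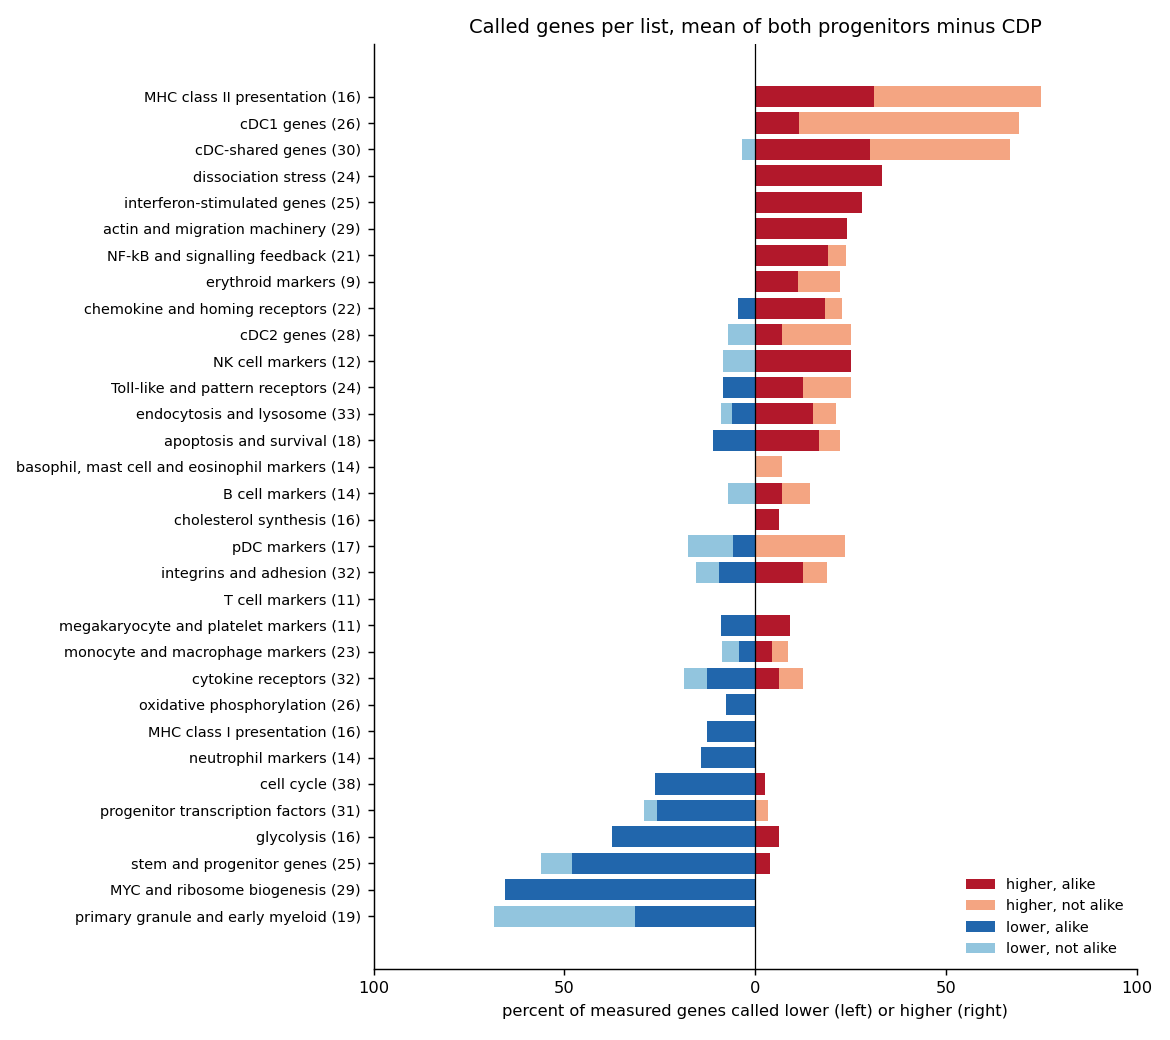
Bars give the percent of measured genes (number in brackets) of each list that were called lower (left, blue) or higher (right, red) in the mean of the progenitors minus CDP, dark where alike. Lists of granule, ribosome and stem cell genes extend left, lists of class II, cDC1 and cDC-shared genes extend right with a pale part, and lists of stress, interferon and actin genes extend right in dark only.

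Adhesion and cell movement genes shifted in part. Of the integrin and adhesion genes 18.8% were called higher and 15.6% lower, and of the homing receptors 22.7% and 4.55%. Over all genes the shares were 3.19% and 3.76%. Itgb2, the common chain of the beta 2 integrins that also pairs with CD11c, stood at 9.22 and 9.35 in Pre-CD4, 9.43 and 9.49 in Pre-CD8 and 6.77, 6.89 and 7.0 in CDP arrays. It rose by 2.49 ± 0.19 (SE, adjusted p = 5.98e-06), with each group within 0.3 of itself. Itgb7, a chain of gut-homing integrins, stood at 9.30 and 8.88 in Pre-CD4, 9.22 and 8.82 in Pre-CD8 and 7.19, 7.09 and 6.97 in CDP arrays and differed by 1.97 ± 0.23 (SE, adjusted p = 1.32e-04). Alcam, the CD6 ligand CD166, stood at 8.81 and 9.46 in Pre-CD4, 9.29 and 9.84 in Pre-CD8 and 7.10, 7.53 and 7.29 in CDP arrays and differed by 2.05 ± 0.22 (SE, adjusted p = 8.75e-05). All 3 genes had CDP arrays below all progenitor arrays. Of 32 integrin and adhesion genes 6 rose (4 alike) and 5 fell (3 alike), with a median of 0.09, and the number lower was 1 without CDP 1 or Pre-CD4 2, 2 without CDP 2 or Pre-CD8 2 and 3 without CDP 3 or CD24 2. Icam2 differed by -1.07 ± 0.25 (SE, adjusted p = 0.0198), lost without CDP 1, Pre-CD4 2 or Pre-CD8 2 (adjusted p = 0.0760 to 0.105). Of 22 homing receptors 5 rose, 4 of them alike, and 1 fell, with a median of 0.42. Gpr183, the oxysterol receptor that positions DCs in the spleen, stood at 9.37 and 9.47 in Pre-CD4, 8.77 and 8.80 in Pre-CD8 and 7.98, 7.82 and 8.03 in CDP arrays and differed by 1.16 ± 0.18 (SE, adjusted p = 0.00132). S1pr3, a receptor for sphingosine 1-phosphate, stood at 6.06 and 5.50 in Pre-CD4, 5.66 and 4.51 in Pre-CD8 and 7.68, 7.67 and 7.47 in CDP arrays and differed by -2.17 ± 0.31 (SE, adjusted p = 6.87e-04). Gpr183 was higher in Pre-CD4 arrays, and S1pr3 was lowest in Pre-CD8 2. Cxcr4 (-0.45), the marrow retention receptor, and S1pr1 (0.05), the egress receptor, were not called.

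Several cytoskeletal genes rose and none fell. Of 29 actin and migration genes 7 rose (24.1%, against 3.19% of all genes), all alike. None fell (0 lower at an unadjusted p under 0.05), and the list median was 0.35. Lsp1, a leukocyte actin-binding protein, stood at 10.85 and 11.03 in Pre-CD4, 10.82 and 11.04 in Pre-CD8 and 8.89, 8.96 and 8.89 in CDP arrays. It rose by 2.02 ± 0.15 (SE, adjusted p = 3.35e-06), and same-numbered arrays of the 2 progenitors differed by under 0.05. Gsn, gelsolin, which severs filaments, stood at 7.55 and 7.31 in Pre-CD4, 7.75 and 7.49 in Pre-CD8 and 5.45, 5.88 and 5.57 in CDP arrays and differed by 1.89 ± 0.23 (SE, adjusted p = 2.11e-04). Tmsb4x, the actin-sequestering thymosin beta 4, differed by 1.05 ± 0.18 (SE, adjusted p = 0.00272). The groups of all 3 were apart, with CDP arrays the lower. Marcks (0.97 ± 0.19 SE, adjusted p = 0.00599) and Myo1g (0.97) rose too, and Actb (0.23), Cfl1 (0.00) and Rac2 (0.05) were not called. Among genes with a called change of at least 2, Cytip (2.30 ± 0.26 SE, adjusted p = 1.13e-04), a binding partner of cytohesins, and Crip1 (2.23 ± 0.29 SE, adjusted p = 3.42e-04) joined Adam19 and Lsp1 as the closest between progenitors among increases. Cdca7 (-2.12 ± 0.29 SE, adjusted p = 6.05e-04), Ubash3a (-2.10 ± 0.25 SE, adjusted p = 1.63e-04), Adgrg1 (-2.13 ± 0.27 SE, adjusted p = 3.09e-04) and Adgrg7 (-2.59 ± 0.24 SE, adjusted p = 2.08e-05) were the closest among decreases.

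Receptors for cytokines and microbial products changed in both directions. Of the cytokine receptors 12.5% were called higher and 18.8% lower, and of the Toll-like and pattern receptors 25% and 8.33%. Over all genes the shares were 3.19% and 3.76%. Of 32 cytokine receptors 4 rose and 6 fell, with a median of -0.07, and 2 were called higher without CDP 2 or Pre-CD4 2. Il1r1, the signalling interleukin-1 receptor, stood at 4.72 and 4.07 in Pre-CD4, 5.05 and 4.65 in Pre-CD8 and 6.87, 6.56 and 6.58 in CDP arrays. It fell by 2.05 ± 0.28 (SE, adjusted p = 5.29e-04). Csf3r, the receptor for the granulocyte factor G-CSF, stood at 5.31 and 5.80 in Pre-CD4, 5.68 and 6.41 in Pre-CD8 and 7.40, 7.10 and 7.59 in CDP arrays and differed by -1.56 ± 0.30 (SE, adjusted p = 0.00536). Il18rap differed by -1.80 ± 0.33 (SE, adjusted p = 0.00440). These decreases left all progenitor arrays below CDP. Il10ra, the receptor for the inhibitory cytokine IL-10, stood at 8.79 and 8.83 in Pre-CD4, 8.14 and 8.07 in Pre-CD8 and 7.31, 7.09 and 7.22 in CDP arrays and rose by 1.25 ± 0.22 (SE, adjusted p = 0.00276), most in Pre-CD4. Of 24 Toll-like and pattern receptors 6 rose and 2 fell, with a median of 0.28, and 1 was called lower without any 1 of the CDP arrays, Pre-CD4 1 or Pre-CD8 1. Tlr12, a receptor for profilin of parasites, stood at 7.74 and 7.36 in Pre-CD4, 8.04 and 7.45 in Pre-CD8 and 5.24, 6.08 and 5.81 in CDP arrays and differed by 1.94 ± 0.22 (SE, adjusted p = 1.32e-04). Tlr9, the CpG DNA receptor, stood at 8.71 and 9.07 in Pre-CD4, 8.62 and 9.14 in Pre-CD8 and 7.54, 7.90 and 7.67 in CDP arrays and differed by 1.18 ± 0.21 (SE, adjusted p = 0.00392). Cd180, a TLR4-like protein, stood at 9.73 and 9.99 in Pre-CD4, 9.92 and 10.02 in Pre-CD8 and 8.24, 8.26 and 8.46 in CDP arrays and differed by 1.59 ± 0.17 (SE, adjusted p = 7.47e-05). All 3 had overlapping progenitor arrays above CDP. Tlr7, the RNA sensor, differed by -1.07, lost without CDP 1, CDP 2, CDP 3, Pre-CD4 1 or Pre-CD8 1 (adjusted p = 0.0564 to 0.140), and Clec7a, the beta-glucan receptor dectin-1, by -1.12 ± 0.22 (SE, adjusted p = 0.00662).

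Interferon-stimulated genes rose in part, with 28% called higher against 3.19% of all genes. Of 25 measured, 7 rose, all alike, and none fell (1 lower at an unadjusted p under 0.05), with a median of 0.35. Mx1, an antiviral GTPase, stood at 6.59 and 6.60 in Pre-CD4, 7.02 and 7.04 in Pre-CD8 and 4.58, 5.03 and 4.79 in CDP arrays. It rose by 2.01 ± 0.23 (SE, adjusted p = 1.08e-04). Irf7, the factor that amplifies interferon production, stood at 7.25 and 7.34 in Pre-CD4, 7.31 and 7.62 in Pre-CD8 and 5.19, 5.59 and 5.54 in CDP arrays and differed by 1.94 ± 0.25 (SE, adjusted p = 3.52e-04). Mx2 stood at 7.37 and 7.29 in Pre-CD4, 6.66 and 6.83 in Pre-CD8 and 5.61, 5.54 and 5.52 in CDP arrays and differed by 1.48 ± 0.22 (SE, adjusted p = 9.35e-04). Progenitor arrays were above CDP in each, in Mx2 most in Pre-CD4. Zbp1 (1.11 ± 0.22 SE, adjusted p = 0.00748), Usp18 (1.10), Trim30a (1.04, lost without CDP 1, CDP 3, Pre-CD4 2 or Pre-CD8 2, adjusted p = 0.0618 to 0.0941) and Ifi35 (0.96, lost without CDP 3, adjusted p = 0.0502) were the remaining members that rose. Inducible genes of the same programme were not called: Ifit1 differed by 0.17, Ifit2 by -0.67, Rsad2 by 0.25, Oasl2 by -0.08 and Isg15 by 0.66. The interferon-response word was in 8 of the 18 matched promoters of the list (44.4%) and in 1 of the 3 matched promoters of members that rose.

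Of the immediate early and stress genes 33.3% were called higher, against 3.19% of all genes. All 3 populations were marrow cells released without enzyme. Of 24 genes known to respond to tissue dissociation 8 rose, all alike, and none fell. At an unadjusted p under 0.05 in limma, 13 were higher and 1 lower. The list median was 0.76, and the list mean was 7.54 to 8.08 in progenitor arrays, against 6.83 to 7.25 in CDP arrays. Rgs1, a brake on chemokine receptor signalling, stood at 6.10 and 6.64 in Pre-CD4, 7.12 and 7.47 in Pre-CD8 and 5.40, 4.29 and 3.43 in CDP arrays. It rose by 2.46 ± 0.36 (SE, adjusted p = 8.51e-04), with CDP arrays spread over nearly 2 units. Fosb (1.22 ± 0.25 SE, adjusted p = 0.00806), Klf6 (1.21), Zfp36 (1.13), Junb (1.06) and Fos (1.03, lost without CDP 2, CDP 3, Pre-CD4 1 or Pre-CD8 1, adjusted p = 0.0566 to 0.0998) rose too. Hspa1b, an inducible heat shock protein, stood at 9.35 and 10.92 in Pre-CD4, 9.80 and 11.31 in Pre-CD8 and 8.46, 9.17 and 7.97 in CDP arrays and differed by 1.81 ± 0.41 (SE, adjusted p = 0.0169), lost without CDP 1, CDP 3, Pre-CD4 2 or Pre-CD8 2 (adjusted p = 0.0589 to 0.0984). Atf3 differed by 1.52 ± 0.36 (SE, adjusted p = 0.0209), lost without CDP 1, CDP 3, Pre-CD4 2 or Pre-CD8 2 (adjusted p = 0.0780 to 0.105). For Hspa1b the array numbered 2 was the higher in each progenitor. Jun (0.17), Egr1 (-0.34), Ier2 (0.15) and Dusp1 (0.57) were not called. The call of Fosb was lost without CDP 2 or CDP 3 (adjusted p = 0.0525 to 0.0551), and 4 members were called without CDP 3. Handling time was not recorded in the labels, and its part in these values was not tested.

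Of 21 genes of NF-kB signalling 5 rose, 4 alike, with a median of 0.19, and 1 was called without CDP 1, CDP 3 or Pre-CD8 1 and 2 without CDP 2, either Pre-CD4 array, Pre-CD8 2 or CD24 2. Nfkbia, the feedback inhibitor, stood at 8.22 and 8.31 in Pre-CD4, 8.43 and 8.37 in Pre-CD8 and 7.21, 7.59 and 7.35 in CDP arrays. It rose by 0.95 ± 0.17 (SE, adjusted p = 0.00361). Nfkbie (0.95 ± 0.26 SE, adjusted p = 0.0415) was lost without CD24 2, CDP 1, CDP 2, CDP 3, Pre-CD4 1, Pre-CD4 2, Pre-CD8 1 or Pre-CD8 2 (adjusted p = 0.0527 to 0.154), Nfkb2 (0.77 ± 0.21 SE, adjusted p = 0.0439) without CD24 2, CDP 1, CDP 2, CDP 3, Pre-CD4 2, Pre-CD8 1 or Pre-CD8 2 (adjusted p = 0.0639 to 0.163) and Birc3 (0.70 ± 0.19 SE, adjusted p = 0.0376) without CD24 2, CDP 1, CDP 2, CDP 3, Pre-CD4 1, Pre-CD4 2, Pre-CD8 1 or Pre-CD8 2 (adjusted p = 0.0504 to 0.150), and Birc3 also with the array number as a block (adjusted p = 0.0756). The NF-kB list had 23.8% called higher, and the survival list 22.2% higher and 11.1% lower, against 3.19% higher and 3.76% lower over all genes. Survival genes of the BCL2 family moved in opposite directions. Bcl2, the anti-apoptotic founder of the family, stood at 8.89 and 8.16 in Pre-CD4, 8.15 and 7.65 in Pre-CD8 and 9.98, 10.28 and 10.09 in CDP arrays. It fell by 1.90 ± 0.29 (SE, adjusted p = 0.00114). Mcl1, another anti-apoptotic member, stood at 10.42 and 10.79 in Pre-CD4, 10.52 and 10.77 in Pre-CD8 and 9.52, 10.11 and 9.75 in CDP arrays and differed by 0.83 ± 0.19 (SE, adjusted p = 0.0187), lost without CDP 1, CDP 3, Pre-CD4 2 or Pre-CD8 2 (adjusted p = 0.0672 to 0.107). Progenitor arrays were below CDP for Bcl2 and above for Mcl1. Pmaip1, which encodes the MCL1 antagonist NOXA, differed by 0.90 ± 0.25 (SE, adjusted p = 0.0480), lost without CD172a 1, CD172a 2, CD24 2, CDP 1, CDP 2, CDP 3, Pre-CD4 2, Pre-CD8 1 or Pre-CD8 2 (adjusted p = 0.0617 to 0.175). Bcl2l1 (-0.26) and Bcl2l11 (-0.40) were not called. Of 18 survival genes 4 rose and 2 fell, and none was called higher without CDP 1, Pre-CD4 2 or Pre-CD8 2, 1 without CDP 2 or CDP 3 and 2 without Pre-CD8 1 or CD24 2, while 1 was called lower without CDP 2, CDP 3 or any 1 progenitor array.

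Part of the energy metabolism genes were called, with 37.5% of the glycolysis genes lower against 3.76% of all genes. Of 16 glycolysis genes 6 fell and 1 rose, all alike, with a median of -0.38, and 3 were called lower without CDP 1, CDP 2, CDP 3 or Pre-CD8 1. Tpi1, triose phosphate isomerase, stood at 7.48 and 6.51 in Pre-CD4, 7.71 and 7.41 in Pre-CD8 and 9.27, 8.86 and 9.13 in CDP arrays. It fell by 1.81 ± 0.28 (SE, adjusted p = 0.00144). Isoforms of phosphofructokinase moved in opposite directions: Pfkp, the platelet form, stood at 8.98 and 9.09 in Pre-CD4, 8.61 and 8.87 in Pre-CD8 and 7.68, 7.65 and 7.62 in CDP arrays, and Pfkm, the muscle form, stood at 4.71 and 4.60 in Pre-CD4, 4.45 and 4.56 in Pre-CD8 and 6.11, 5.31 and 5.45 in CDP arrays. Pfkp rose by 1.24 ± 0.20 (SE, adjusted p = 0.00154) and Pfkm fell by 1.04 ± 0.22 (SE, adjusted p = 0.0114), lost without CDP 1 (adjusted p = 0.0670). Hk3, already described, Pgk1, Pgam1 and Pkm were the other decreases. The calls of Pgk1 and Pkm were lost without CDP 1, CDP 2 or CDP 3, and that of Pgam1 without CDP 2 or CDP 3, among other arrays. Gapdh (-0.27) and Ldha (-0.01) were not called. The mean of the glycolysis list was 6.99 to 7.11 in progenitor arrays and 7.36 to 7.52 in CDP arrays. Of 26 oxidative phosphorylation genes only Atp5b (-0.75 ± 0.20 SE, adjusted p = 0.0435) and Atp5a1 (-0.61 ± 0.16 SE, adjusted p = 0.0370), both subunits of ATP synthase, fell. Neither was called with the array number as a block (adjusted p = 0.0758 for Atp5b and 0.0515 for Atp5a1) or when any 1 of the 7 arrays was left out (adjusted p up to 0.158 for Atp5b and 0.147 for Atp5a1), and 4 members were called lower without CD24 1 or CD24 3. Of 16 cholesterol synthesis genes Srebf2, their master activator, alone was called. At an unadjusted p under 0.05 in limma, 9 of the list were higher and 0 lower. Srebf2 stood at 8.36 and 8.25 in Pre-CD4, 8.76 and 8.99 in Pre-CD8 and 7.60, 7.45 and 7.82 in CDP arrays. Its difference was 0.97 ± 0.16 (SE, adjusted p = 0.00255), and 2 members were called without CD24 3. Of 33 lysosomal and endocytic genes 7 rose (21.2%, against 3.19% of all genes) and 3 fell (9.09%, against 3.76%), with a median of 0.17. Cd68, a lysosomal glycoprotein, stood at 9.81 and 10.28 in Pre-CD4, 9.92 and 10.19 in Pre-CD8 and 8.45, 8.55 and 8.63 in CDP arrays and differed by 1.51 ± 0.20 (SE, adjusted p = 3.80e-04). Rab11a, of recycling endosomes, stood at 8.66 and 8.83 in Pre-CD4, 8.83 and 9.05 in Pre-CD8 and 7.82, 7.70 and 7.79 in CDP arrays and differed by 1.07 ± 0.17 (SE, adjusted p = 0.00186). Both had progenitor arrays above CDP. Ctsh (1.07 ± 0.24 SE, adjusted p = 0.0132) was lost without CDP 1, CDP 3 or Pre-CD4 2 (adjusted p = 0.0526 to 0.0620), Rab27a (-1.20 ± 0.27 SE, adjusted p = 0.0146) without CDP 2, CDP 3 or Pre-CD4 2 (adjusted p = 0.0579 to 0.0700), and 3 members were called higher without CDP 1 or CDP 3, 4 without Pre-CD4 2, and 1 lower without CDP 2, CDP 3 or Pre-CD4 2.

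Markers of other lineages were called to differing degrees, against 3.19% of all genes called higher and 3.76% lower. None of 11 T cell markers was called in limma (2 higher and 1 lower at an unadjusted p under 0.05), with 1 higher without CD24 2. Of 14 B cell markers 2 rose (14.3%) and 1 fell. Of these, Fcrla (1.03) was lost without any 1 of 9 arrays (adjusted p up to 0.194), CD24 1, CD24 2 and CDP 1 excepted, and Rag2 (-1.14) without CDP 1, CDP 2, Pre-CD4 2 or Pre-CD8 1 (adjusted p = 0.0638 to 0.119), and 2 were called lower without CDP 3 or Pre-CD8 2. Of 14 neutrophil markers 2 fell (14.3%), with 1 higher without Pre-CD4 1 or Pre-CD8 1. Of 23 monocyte and macrophage markers 2 rose and 2 fell (8.70% each), with 4 higher without CD24 3 and 1 lower without either CD172a array, CDP 1, CDP 2, Pre-CD4 1 or Pre-CD8 1. Of 9 erythroid markers 2 rose (22.2%), with 1 lower without CD24 2 or CD24 3. Of 17 plasmacytoid DC markers 4 rose (23.5%) and 3 fell (17.6%), with 1 lower without any 1 of the CDP arrays, Pre-CD4 2 or Pre-CD8 2, and Dntt, already described, was the only member alike. Of 11 megakaryocyte and platelet markers 1 rose and 1 fell, and of 14 basophil, mast cell and eosinophil markers Cpa3 alone rose (0.91, lost without CDP 1, CDP 2, CDP 3, Pre-CD4 2 or Pre-CD8 2, adjusted p = 0.0635 to 0.129). The mean of the T cell markers was 4.54 to 4.63 in progenitor arrays and 4.43 to 4.56 in CDP arrays, that of the B cell markers 4.87 to 5.19 in progenitor arrays and 4.77 to 5.14 in CDP arrays, and that of the erythroid markers 5.33 to 5.49 in progenitor arrays and 5.28 to 5.35 in CDP arrays. The mean of the NK cell markers was 5.36 to 5.85 in progenitor arrays and 5.06 to 5.12 in CDP arrays, without overlap, and that of the plasmacytoid DC markers 6.22 to 8.10 in progenitor arrays and 6.54 to 6.89 in CDP arrays. The mean of the basophil, mast cell and eosinophil markers spanned 4.18 to 5.43 in progenitor arrays and 4.52 to 4.57 in CDP arrays. Cd22, an inhibitory lectin known from B cells, stood at 7.23 and 7.27 in Pre-CD4, 8.45 and 7.83 in Pre-CD8 and 5.76, 5.39 and 5.44 in CDP arrays. It rose by 2.17 ± 0.20 (SE, adjusted p = 2.71e-05), while the B cell genes Cd79a (0.24), Pax5 (0.09) and Ms4a1 (0.37) were not called. Of 12 NK cell markers 3 rose alike (25.0%) and 1 fell, a decrease not called without CDP 1 or CDP 3. Klrd1, the CD94 chain, stood at 8.65 and 8.76 in Pre-CD4, 7.70 and 7.86 in Pre-CD8 and 6.42, 6.04 and 5.95 in CDP arrays and differed by 2.10 ± 0.47 (SE, adjusted p = 0.0147), lost without CDP 2 or CDP 3 (adjusted p = 0.0584 to 0.0672). Klrk1, the receptor NKG2D, stood at 7.01 and 7.18 in Pre-CD4, 7.89 and 8.23 in Pre-CD8 and 5.75, 6.15 and 6.10 in CDP arrays and differed by 1.58 ± 0.29 (SE, adjusted p = 0.00430). Cd244a, the SLAM receptor 2B4, stood at 8.34 and 8.60 in Pre-CD4, 8.23 and 8.31 in Pre-CD8 and 6.95, 7.02 and 6.81 in CDP arrays and differed by 1.45 ± 0.21 (SE, adjusted p = 8.11e-04). Each had CDP below the progenitors, and the defining NK genes Ncr1 (0.16), Eomes (0.10) and Klrb1c (0.27) were not called. The neutrophil markers that fell were Csf3r and Mmp8, the neutrophil collagenase, at -1.70 ± 0.35 (SE, adjusted p = 0.00835). Of the erythroid genes Aqp1 (0.80 ± 0.21 SE, adjusted p = 0.0343) was lost without CDP 1, CDP 2, CDP 3, Pre-CD4 1, Pre-CD4 2, Pre-CD8 1 or Pre-CD8 2 (adjusted p = 0.0513 to 0.174) and Car1 (1.05 ± 0.29 SE, adjusted p = 0.0415) without CD172a 1, CD172a 2, CD24 2, CDP 1, CDP 2, CDP 3, Pre-CD4 1, Pre-CD4 2 or Pre-CD8 1 (adjusted p = 0.0591 to 0.150), and of the other lists Vwf (0.71 ± 0.17 SE, adjusted p = 0.0217) without CDP 1, CDP 2, CDP 3, Pre-CD4 2 or Pre-CD8 1 (adjusted p = 0.0529 to 0.0982), Selp (-0.96 ± 0.25 SE, adjusted p = 0.0311) without CDP 1, CDP 2, CDP 3, Pre-CD4 1, Pre-CD4 2 or Pre-CD8 2 (adjusted p = 0.0524 to 0.157) and Clec4e (-1.04 ± 0.28 SE, adjusted p = 0.0387) without CD172a 1, CD172a 2, CDP 1, CDP 2, Pre-CD4 1 or Pre-CD8 1 (adjusted p = 0.0579 to 0.187).

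Genes of the sort and of lineage choice moved apart rather than alike. Kit, which encodes CD117, stood at 6.11 and 5.80 in Pre-CD4, 8.85 and 9.23 in Pre-CD8 and 8.51, 8.16 and 8.04 in CDP arrays, a difference from CDP of -2.28 in Pre-CD4 and 0.80 in Pre-CD8. Its averaged difference was -0.74 ± 0.18 (SE, adjusted p = 0.0218), lost without CDP 1, CDP 2, Pre-CD4 2 or Pre-CD8 1 (adjusted p = 0.0629 to 0.123). Csf1r, which encodes CD115, stood at 8.77 and 8.83 in Pre-CD4, 6.73 and 6.33 in Pre-CD8 and 8.99, 9.25 and 9.17 in CDP arrays, a difference of -0.34 in Pre-CD4 and -2.61 in Pre-CD8. Flt3, which encodes CD135, stood at 9.53 and 9.57 in Pre-CD4, 9.19 and 9.53 in Pre-CD8 and 9.64, 9.70 and 9.22 in CDP arrays and was not called (-0.06 ± 0.19 SE, adjusted p = 0.923), with CD135+ part of all 3 gates. Sirpa (-0.71 ± 0.20 SE, adjusted p = 0.0452) lost its call with the array number as a block (adjusted p = 0.0527) and without CD172a 1, CD172a 2, CD24 2, CDP 1, CDP 2, CDP 3, Pre-CD4 1, Pre-CD4 2 or Pre-CD8 1 (adjusted p = 0.0567 to 0.158). Siglech differed from CDP by 2.12 in Pre-CD4 and -0.43 in Pre-CD8 and Cd24a by -0.41 in Pre-CD4 and 0.82 in Pre-CD8. Their averaged differences were 0.84 for Siglech and 0.20 for Cd24a and were not called, although that of Siglech was without CD24 1 (adjusted p = 0.0339). Pre-CD8 minus Pre-CD4 was called in both, at -2.55 for Siglech and 1.24 for Cd24a. Id2, the inhibitor of E proteins, differed by 0.29 in Pre-CD4 and 4.96 in Pre-CD8, Batf3, the cDC1 factor, by 0.97 in Pre-CD4 and 4.55 in Pre-CD8, Irf4, the cDC2 factor, by 3.00 in Pre-CD4 and 0.86 in Pre-CD8, and Klf4 by 2.25 in Pre-CD4 and 1.16 in Pre-CD8. Tcf4, the E protein of plasmacytoid DCs, had an averaged difference of 0.14 made of 1.10 in Pre-CD4 and -0.81 in Pre-CD8, with Pre-CD8 minus Pre-CD4 called at -1.91. Nfil3 (-1.03 ± 0.32 SE, adjusted p = 0.0803) and Mycl (0.59 ± 0.28 SE, adjusted p = 0.296) were not called. Other settings did call Nfil3 lower: the 7 progenitor and CDP arrays alone (adjusted p = 0.00601) and the array interquartile range as a covariate (0.00620). It was also called without CD24 1 (0.00555) or CD24 3 (0.0294). Genes not alike with the largest gaps were Tlr3, with 0.64 in Pre-CD4 and 6.15 in Pre-CD8, Gpr141b, with 0.10 in Pre-CD4 and 4.13 in Pre-CD8, Rab7b, with -0.81 in Pre-CD4 and 3.20 in Pre-CD8, Cd7, with 5.56 in Pre-CD4 and 1.87 in Pre-CD8, Spib, with 4.38 in Pre-CD4 and 0.78 in Pre-CD8, Cd209d, with 4.75 in Pre-CD4 and 1.20 in Pre-CD8, and Lifr, with 2.72 in Pre-CD4 and -0.41 in Pre-CD8. The calls of Rab7b and Lifr in the averaged contrast were lost without CDP 1 or CDP 3 (adjusted p = 0.0582 to 0.0610) and CDP 2 or Pre-CD4 2 (adjusted p = 0.0516 to 0.0556).

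Levels in spleen DCs, which the rule did not use, showed that shared changes took several courses. Cd34 averaged 4.94 in CD172a and 5.39 in CD24 spleen arrays and Myb 5.65 in CD172a and 6.92 in CD24, both below every progenitor array. Adam19 averaged 9.53 in CD172a and 10.44 in CD24 spleen arrays, above every progenitor array, and Rgs1 10.34 in CD172a and 9.46 in CD24. Lsp1 averaged 10.61 in CD172a and 10.86 in CD24, close to the progenitor arrays. Cd300lg averaged 4.77 in CD172a and 4.28 in CD24 and Itgb7 7.04 in CD172a and 7.09 in CD24, near the CDP levels and more than 1.5 units below the lowest progenitor array. Spleen was digested with collagenase and marrow was not, so tissue, digestion and stage cannot be told apart in these levels.

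**Figure D5:**
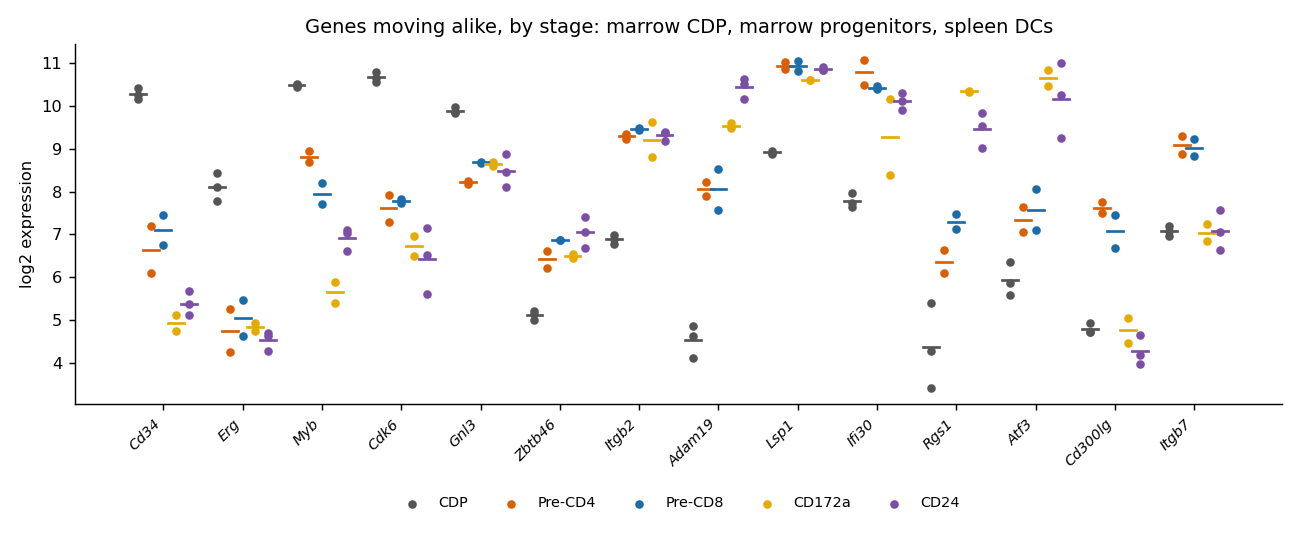
Points are single arrays and bars group means in log2 expression for 14 genes moving alike, in the order CDP, Pre-CD4, Pre-CD8 and the spleen populations CD172a and CD24. Cd34, Erg and Myb step down from CDP, Adam19 and Atf3 step up again in spleen, and Cd300lg and Itgb7 are high in the progenitors alone.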

How the data were processed

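Total RNA was amplified (NuGen Ovation Pico), fragmented and biotin-labelled for 1-colour arrays, per the labels' protocols. The deposited table held 1 log2 value per probe set and array. How the authors corrected background and normalized is not stated in these sources, and no further normalization was applied. Of 35145 probe sets 23525 had 1 gene symbol, 1810 several and 9810 none in the platform annotation. The probe set with the highest mean represented each of 22184 genes (1082 had several). All 12 arrays entered 1 limma 3.58.1 fit (R 4.3.3, lmFit and eBayes, 5 group means, 7 residual and 6.18 prior degrees of freedom), with two-sided p-values adjusted by Benjamini-Hochberg over all genes and a threshold of 0.05. The fit was tested on simulated data with independent noise between arrays. It recovered 45% of changes of size 1 and 96% of those of size 2, and 4.08% of its calls were false. Many true changes of about 1 could therefore be missed, and correlation between arrays was not simulated.

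The comparison, the members and the 34 gene lists were chosen with earlier results of these data known. Named are the 12 largest shared changes in each direction, up to 4 alike genes per list, all sort and lineage genes, the 4 largest called progenitor differences each way among called genes, and the 4 closest progenitor pairs each way among changes of at least 2. Further list members were named after their values were seen. Of 703 listed genes 647 were measured. Precision is limited by the number of arrays. Deviations from group means correlated at r = 0.34 to 0.44 in all 6 same-number pairs of the 7 arrays and at -0.44 to 0.22 in the 10 other pairs. In a group of 2 arrays the deviations mirror each other, so many of these values repeat in size and are not independent. Array numbers were read as pairing by that rule, although the labels do not say what a number marks. The main fit did not use them. Promoters came from RefSeq (GRCm38.p6). Alternatives were the 7 arrays alone, quantile normalization, a filter on dim genes (40th percentile), averaged probe sets, a trended robust prior, the array interquartile range as covariate, the array number as block, a minimum size of 0.5 (treat), leaving out arrays, and 2 other rules for alike.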

Additional observations from a re-analysis of the deposited data

Results flagged for a closer look

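For 20 of the 149 genes that the naming rule gave, the change from CDP differed between the progenitors, by the limma test of Pre-CD8 minus Pre-CD4 itself at an adjusted p under 0.05. Differences are Pre-CD8 minus Pre-CD4 in log2, with n = 2 arrays each. Higher in Pre-CD8 cells were Tlr3 (5.51), Id2 (4.67), Gpr141b (4.03), Rab7b (4.02), H2-Eb1 (3.90), Batf3 (3.58), Kit (3.09), H2-Aa (2.67), H2-Ab1 (2.59) and Cd24a (1.24). Higher in Pre-CD4 cells were Cd7 (-3.69), Spib (-3.60), Cd209d (-3.55), Lifr (-3.12), Siglech (-2.55), Csf1r (-2.27), Irf4 (-2.15), Tcf4 (-1.91), Sirpa (-1.64) and Itgax (-1.64). Cd24a, Siglech and Tcf4 were not called in the averaged contrast. Among the list members named after their values were seen, Cpa3 (1.72), Ctsg (1.72), Slamf7 (1.25) and Bcl11a (-1.30) passed the same test. CD117 (Kit) and MHC class II were sorted at different levels in the 2 progenitors, CD115 (Csf1r) was a criterion for Pre-CD4 and not for Pre-CD8, and Siglec H (Siglech) was excluded in Pre-CD8 and not gated in Pre-CD4. No group had 4 arrays, so single arrays were not tested against their group.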

How the results depend on the processing

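Genes called higher numbered 1115 with the array interquartile range as covariate, 191 with a minimum size of 0.5 and 418 without the 5 arrays numbered 1, and genes called lower 132 and 418 under the last 2 settings. Genes alike and higher numbered 132, 291 and, when each progenitor had to be called against CDP on its own, 279. Genes alike and lower numbered 121, 382 and 308 under the same settings. Called genes numbered 304 and 502 for Pre-CD8 minus CDP under the minimum size and without the arrays numbered 1, and 240 and 427 for Pre-CD4 minus CDP, with 1600 for Pre-CD4 minus CDP under the covariate. For Pre-CD8 minus Pre-CD4 they numbered 59 and 89. Leaving out 1 array gave 442 to 871 genes called higher, 439 to 1111 lower, 341 to 710 alike and higher, 419 to 1058 alike and lower, 510 to 1315 for Pre-CD8 minus CDP, 298 to 1302 for Pre-CD4 minus CDP and 58 to 194 between progenitors. With the array number as replicate block, 744 genes were called higher and 1033 lower, and 561 and 932 were alike. The block ended the calls of Atp5a1, Atp5b, Birc3, H2-DMa and Sirpa, and of no other gene among those the rule named. Quantile normalization ended those of Nfkb2, Nfkbie, Pmaip1 and Sirpa (adjusted p = 0.0710 to 0.128). Fitting the 7 arrays alone ended those of Clec4e, Hspa1b, Kyat3 and Sirpa (adjusted p = 0.0504 to 0.0648). With the interquartile range as covariate, Nfkb2 and Nfkbie lost theirs (adjusted p = 0.0510 to 0.0551). Of 140 named genes called, 79 were called in every alternative setting that held them, 21 for most and 20 for Adgrg7, Gm4759 and Ubash3a, which the filter on dim genes removed. The sign turned for Flt3 (0.0026 after quantile normalization, 0.090 without the arrays numbered 1, and -0.214 to 0.0267 with 1 array left out) and Cd24a (-0.026 with probe sets averaged), neither called. The cause of these shifts was not tested, except that leaving out arrays leaves fewer samples and the minimum size asks for more than a difference from 0.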

Other observations

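Further groups were examined after their values were seen, so they are descriptions without a list test. Over all genes tested, 3.19% were called higher and 3.76% lower. Of 18 measured genes of serine, one-carbon and purine synthesis 11 were called lower in the progenitors, all alike, and none higher, with a median of -0.90 against 0.03 over all genes. Shmt2, the mitochondrial serine hydroxymethyltransferase, stood at 7.52 and 7.14 in Pre-CD4, 7.32 and 7.02 in Pre-CD8 and 9.34, 9.35 and 9.24 in CDP arrays, a difference of -2.06 ± 0.24 (SE, adjusted p = 1.63e-04). Its progenitor arrays were all below its CDP arrays. Adssl1 (-2.17 ± 0.30 SE, adjusted p = 5.82e-04), Phgdh (-1.65 ± 0.33 SE, adjusted p = 0.00727), Shmt1 (-1.60 ± 0.22 SE, adjusted p = 5.92e-04), Ppat (-1.56 ± 0.20 SE, adjusted p = 3.38e-04) and Mthfd1 (-1.51 ± 0.17 SE, adjusted p = 1.34e-04) were lower as well. Mthfd1l (-0.92) lost its call without CDP 1, CDP 2, CDP 3, Pre-CD4 1, Pre-CD4 2 or Pre-CD8 2 (adjusted p = 0.0506 to 0.0838), Gmps (-0.89) without CDP 1, CDP 2, CDP 3, Pre-CD4 1, Pre-CD4 2, Pre-CD8 1 or Pre-CD8 2 (adjusted p = 0.0526 to 0.124), Adss (-0.81) without CDP 2, CDP 3, Pre-CD4 1 or Pre-CD8 2 (adjusted p = 0.0506 to 0.0843) and Adsl (-0.80) without CD172a 1, CD172a 2, CD24 2, CDP 1, CDP 3, Pre-CD4 1, Pre-CD4 2, Pre-CD8 1 or Pre-CD8 2 (adjusted p = 0.0504 to 0.183).

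Of 12 kynurenine pathway genes 2 were higher and 1 lower, all alike, against 3.19% of all genes called higher and 3.76% lower. Kmo, the kynurenine hydroxylase, stood at 10.36 and 10.55 in Pre-CD4, 9.81 and 9.93 in Pre-CD8 and 7.72, 8.12 and 8.14 in CDP arrays, a difference of 2.17 ± 0.22 (SE, adjusted p = 6.08e-05), and Kynu at 6.84 and 7.20 in Pre-CD4, 6.66 and 6.47 in Pre-CD8 and 4.46, 4.11 and 4.03 in CDP arrays. Both enzymes were higher in every progenitor array than in any CDP array. Kyat3 differed by -0.98 ± 0.25 (SE, adjusted p = 0.0320), lost without CDP 1, CDP 2, CDP 3, Pre-CD4 2 or Pre-CD8 2 (adjusted p = 0.0548 to 0.159). Of 27 measured adhesion G protein-coupled receptors 4 were lower alike (Adgrl4, Adgrg3, Adgrg7 and Adgrg1) and 2 were higher but not alike. The shares over all genes were 3.58% alike and lower and 3.19% called higher.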
